A study of Mus musculus with 6 samples.

Results

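Of the 591 tRNA fragments listed for mouse brain, 17 carried the names of parent tRNAs for different amino acids. Each fragment in the deposited table has its own ID and is listed once under every parent tRNA to which it was assigned. A fragment was taken as shared when its parent names, with mature tRNAs and precursors treated alike, gave at least 2 amino acids and included a mature tRNA. The 17 fell into 6 combinations: 6 of glutamate with lysine, 5 of glycine with valine, 2 of phenylalanine with serine, 2 of leucine with proline, 1 of glycine with lysine, and 1 of alanine with a tRNA named Und, which gives no amino acid. That last fragment, AS-tDR-007197, therefore met the definition only through the undetermined name, and AS-tDR-001130 met it only through a glycine precursor, its mature parents all being valine tRNAs.

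The libraries were small RNA libraries from the brain of C57BL/6 mice, an inbred laboratory strain, with 3 libraries from the age of 3 months and 3 from the age of 22 months. The labels name no treatment or allele in either group, and give neither the brain region nor whether the tissue of several animals was pooled. Values are tag counts, that is, the number of sequenced reads assigned to a fragment ID. Listed tags summed to between 44156 and 96130 per library, the smallest count above 0 was between 8 and 17, and a 0 therefore means a level below that minimum. The table holds tRNA fragments only, so brain markers were not checked here. In whole tissue, fewer cells of a type and less RNA per cell cannot be told apart.

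A tRNA carries 1 amino acid to the ribosome and reads the codon through the 3 bases of its anticodon, and its name gives the amino acid and the anticodon. The arms and loops around the anticodon are similar among tRNA families, and mammalian genomes hold gene copies whose body resembles the tRNAs of another amino acid. Cleavage of tRNAs by nucleases such as angiogenin gives fragments shorter than the tRNA. A fragment that lacks the bases in which 2 tRNAs differ cannot be assigned to either of them.

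The parents are shown because their sequences are where the sharing can be seen. The table gives the sequence of each parent and not that of the fragment. Each sequence below is a mature tRNA from the deposited table, 5′ to 3′, with the 3′ CCA. Capitals mark the longest stretch found without mismatch in every mature parent of the fragments of that combination (for glycine with valine, in every mature parent of 4 of the 5). Positions are counted from 1 at the 5′ end. The position of each fragment within its parents, and the chromosomal position of the genes, were not determined here.

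For glutamate with lysine, the parents Glu-CTC-3-1 and Lys-CTT-13-1 are shown.
Glu-CTC-3-1: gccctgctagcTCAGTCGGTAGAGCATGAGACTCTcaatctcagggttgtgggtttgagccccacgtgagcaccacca
Lys-CTT-13-1: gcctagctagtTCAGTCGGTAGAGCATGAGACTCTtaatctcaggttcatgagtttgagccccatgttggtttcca
The common stretch had 24 bases, at positions 12 to 35, and ended inside the anticodon, which lies at positions 34 to 36. The next base separates the amino acids in name: relative to Lys-CTT-3-1 and Lys-CTT-13-1, Glu-CTC-3-1 has the change T36C in the anticodon. Over the first 40 bases, Glu-CTC-3-1 differed at 2 positions relative to Lys-CTT-3-1, G5T and T36C, and relative to Lys-CTT-13-1 at 4 positions, T4C, A5T, T11C and T36C. Over the whole length, Glu-CTC-3-1 was identical to Lys-CTT-3-1 in 68 of 78 aligned positions (87.2%).

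For glycine with valine, Gly-ACC-1-1 and Val-AAC-2-1 are shown, with Gly-GCC-2-1, a parent of none of the 17, for contrast.
Gly-ACC-1-1: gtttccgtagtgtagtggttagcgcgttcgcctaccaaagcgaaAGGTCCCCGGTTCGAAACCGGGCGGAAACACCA
Val-AAC-2-1: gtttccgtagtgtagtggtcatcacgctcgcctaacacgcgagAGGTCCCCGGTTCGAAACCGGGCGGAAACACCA
Gly-GCC-2-1: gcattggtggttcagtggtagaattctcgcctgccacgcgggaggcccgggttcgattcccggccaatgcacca
The longest common stretch, of 33 bases, ran to the 3′ CCA end, from position 44 in the valine tRNAs and 45 in Gly-ACC-1-1. It thus covers the T arm and the 3′ side of the acceptor stem. At the 5′ end, Gly-ACC-1-1 and Val-AAC-2-1 were also identical up to their first difference, C20T. Gly-ACC-1-1 was identical to Val-AAC-2-1 in 69 of 77 aligned positions (89.6%) and to Gly-GCC-2-1 in 50 of 77 (64.9%). The fifth fragment, AS-tDR-001130, has the mature parents Val-AAC-3-1 and Val-CAC-3-1 and the precursor of Gly-ACC-1-1. Relative to Val-AAC-2-1, Val-AAC-3-1 has the change A69G and no other, and 25 bases, aggtccccggttcgaaaccgggcgg, were common to all parents of AS-tDR-001130.

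In the other combinations the longest common stretch lay on the 5′ side of the anticodon. For phenylalanine with serine and leucine with proline, whole tRNAs of different amino acids were nearly identical.
Ser-GGA-1-1: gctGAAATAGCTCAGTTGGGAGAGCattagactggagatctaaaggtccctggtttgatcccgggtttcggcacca
Phe-GAA-1-1: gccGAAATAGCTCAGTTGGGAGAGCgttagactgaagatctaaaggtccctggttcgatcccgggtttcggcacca
Leu-TAA-5-1: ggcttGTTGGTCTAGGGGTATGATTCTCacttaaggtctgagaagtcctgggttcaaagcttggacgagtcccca
Pro-AGG-2-1: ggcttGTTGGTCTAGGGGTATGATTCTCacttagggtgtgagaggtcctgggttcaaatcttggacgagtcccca
Gly-ACC-2-1: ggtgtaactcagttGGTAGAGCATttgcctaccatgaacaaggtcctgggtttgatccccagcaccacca
Lys-TTT-1-1: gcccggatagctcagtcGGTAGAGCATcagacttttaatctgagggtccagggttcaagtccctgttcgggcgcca
Und-NNN-1-1: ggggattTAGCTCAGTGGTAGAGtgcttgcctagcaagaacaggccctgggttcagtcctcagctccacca
Ala-AGC-3-1: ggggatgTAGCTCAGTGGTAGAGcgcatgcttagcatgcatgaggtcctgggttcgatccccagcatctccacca
Relative to Phe-GAA-1-1, Ser-GGA-1-1 differed at 4 of 76 positions, C3T, G26A, A35G and C56T, of which A35G lies in the anticodon. Relative to Pro-AGG-2-1, Leu-TAA-5-1 differed at 4 of 75 positions, G34A, G38C, G44A and T59G. Of these, G34A lies in both anticodons, which were read at positions 32 to 34 in Leu-TAA-5-1 and 33 to 35 in Pro-AGG-2-1. The longest stretches had 22 bases for phenylalanine with serine and 23 for leucine with proline. In both of these pairs as shown, shorter stretches on the 3′ side were also identical, up to the CCA end. The stretch common to the parents of the alanine fragment had 16 bases, and that of the glycine with lysine fragment AS-tDR-010789 had 10, the shortest of all. For AS-tDR-010789 the 10 bases were also the longest stretch common to Gly-ACC-2-1 and any single lysine parent.

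The mature tRNAs of the table were also compared with one another. The table holds 181 distinct mature sequences that have another sequence of the same amino acid beside them, and 9 of these (4.97%) were nearer to a tRNA of another amino acid than to any of their own. Among these sequences are 28 parents of the shared fragments, of which 6 were among the 9: Glu-CTC-3-1, Gly-ACC-1-1, Gly-ACC-2-1, Leu-TAA-5-1, Ser-GGA-1-1 and Pro-AGG-2-1. The nearest tRNA of Glu-CTC-3-1 was Lys-CTT-3-1, against 63.0% identity to the nearest other glutamate tRNA, and that of Gly-ACC-1-1 was Val-AAC-1-1 (93.5%), against 65.4% within glycine. Gly-ACC-2-1 was nearest to Ala-AGC-3-1 (77.6%) and not to its lysine co-parents, with 59.2% identity to Lys-TTT-1-1. The remaining 3 were Ala-CGC-5-1, Glu-CTC-5-1 and Tyr-GTA-6-1. None of these 3 was a parent of a shared fragment.

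For most shared fragments, the named parents were not all the mature tRNAs that hold the stretch common to those parents. Fragment sequences are not given, so whether the unnamed tRNAs match the fragment itself was not determined. For 14 of the 17 fragments, the whole stretch common to the mature parents also occurred in mature tRNAs of the table that are not named as parents. For 5 glutamate with lysine fragments these were the 7 copies of Lys-CTT-3. The stretch occurred in no other mature tRNA for AS-tDR-001130, AS-tDR-004118 and AS-tDR-004874. For AS-tDR-001130 that stretch is the 42 bases common to its 2 mature parents, both valine tRNAs. The 25 bases common to all its parents, precursor included, also occur in the mature Gly-ACC-1-1 and Val-AAC-2-1, which are not named as its parents. How the parents were assigned is not given in the sources used here, so the names are read as the authors' assignment.

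The series compares brain at 22 and at 3 months, and no shared fragment passed the threshold in that comparison. Of the 17, 15 had enough tags to be tested, and 0 rose and 0 fell (quasi-likelihood test of edgeR with a threshold of 0.05 on the p adjusted by Benjamini-Hochberg over all 439 fragments tested; the 15 adjusted p lay between 0.229 and 0.98), against 6.61% called over all fragments tested (4.78% higher and 1.82% lower). That share depends on the processing: 0 of all fragments passed with scaling by library size only, with scaling to the smallest listed count, when low counts were left unfiltered, when replicate numbers entered as a block, or without any one of 3 month replicates 1, 2 and 3 and 22 month replicate 1. None of the 15 had an unadjusted p under 0.05, against 25.5% of all fragments tested. DESeq2 called 0 of the 15 and 22.1% of all fragments tested, and limma-voom 0 of the 15 and 10.5%. The log2 difference (22 minus 3 months) was negative for 11 of the 15, with a median of -0.21, against 57.4% negative and a median of -0.16 over all fragments tested. In TMM-scaled CPM, that is, tags relative to the library total after a correction for composition, the 3 libraries of the ages did not overlap for 1 of the 15, lower at 22 months, against 19.4% of all fragments higher and 20.0% lower.

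Together the 17 took a small and varying part of the listed tags. They gave 735, 545 and 711 tags in replicates 1, 2 and 3 at 3 months, which is 1.28%, 1.21% and 1.61% of listed tags. At 22 months they gave 878, 898 and 619 tags, or 1.23%, 0.934% and 0.73%. The share was thus lowest in 22 month replicates 2 and 3, and that of 22 month replicate 1 lay within the range of the 3 month libraries (1.37% ± 0.215 and 0.966% ± 0.254, SD, n = 3 each). Counts of 0 were also unequal, with 6 of the 17 at 0 in 22 month replicate 3 and 1 to 4 in each of the other libraries. That library stood apart for the listed fragments as a whole, with 218 of 591 at 0 against 128 to 178 in the others, and its part in the results below was not tested beyond the fits without it.

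The 6 fragments of glutamate with lysine gave more tags than any other combination in 5 of the 6 libraries, the exception being 22 month replicate 3. As a share of listed tags, each of the 6 was lowest in that library. They are listed under Glu-CTC-3-1 and under lysine tRNAs with the anticodon CTT, which decodes AAG. Their sum was 435, 276 and 403 tags at 3 months and 453, 484 and 257 at 22 months. As a share of listed tags this is 0.758%, 0.612% and 0.913%, against 0.637%, 0.503% and 0.303% (0.761% ± 0.151 and 0.481% ± 0.168, SD, n = 3 each), with overlapping ranges. All 6 log2 differences were negative, with a median of -0.54, but 0 passed, and without 22 month replicate 3 those of AS-tDR-004117 (0.05) and AS-tDR-009858 (0.17) were positive.

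AS-tDR-004117 was the most abundant of the 17 by mean CPM over the libraries. It had 137, 73 and 95 tags at 3 months and 143, 153 and 85 at 22 months. In CPM it went from 1919 ± 305 to 1661 ± 416 (SD, n = 3 each). The log2 difference was -0.21, with a standard error of 0.26 and an edgeR adjusted p of 0.667. The ages overlapped, the highest library being 3 month replicate 1 and the lowest 22 month replicate 3.

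AS-tDR-004118 differs from the other 5 in its parents, since it is also listed under the 7 Lys-CTT-3 copies and has 16 parents in all. It had 86, 76 and 127 tags at 3 months and 84, 117 and 59 at 22 months, or 1891 ± 667 and 1128 ± 306 CPM (SD, n = 3 each). The difference was -0.74 on the log2 scale, with a standard error of 0.33 and an edgeR adjusted p of 0.229, the smallest among the 15. It was -0.42 without 3 month replicate 3 and -0.48 without 22 month replicate 3. As a share of listed tags its libraries did not overlap between the ages. How many of all fragments did not overlap on that scale was not determined. On the TMM-scaled scale its libraries overlapped, because 22 month replicate 2 (1432 CPM) lay above 3 month replicate 1 (1374 CPM). Its tags were a small part of those under the same lysine tRNA. The 10 fragments listed under Lys-CTT-3-1 summed to 3184, 1815 and 1191 tags at 3 months and 2971, 6373 and 11375 at 22 months. AS-tDR-004118 made up 2.7%, 4.19% and 10.7% of these at 3 months and 2.83%, 1.84% and 0.519% at 22 months, a description with no test.

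The other 5 glutamate with lysine fragments have an identical set of 5 parents, Glu-CTC-3-1 and Lys-CTT-18-1, both with their precursors, and Lys-CTT-13-1. Since they share all parents, and may share sequence, they are not independent of each other. AS-tDR-003929 had 48, 22 and 42 tags at 3 months and 43, 33 and 24 at 22 months, a log2 change of -0.69 with a standard error of 0.36 (edgeR adjusted p = 0.279). AS-tDR-003930 had 58, 39 and 50 tags and 64, 64 and 35, a log2 change of -0.40 with a standard error of 0.27 (edgeR adjusted p = 0.425). In both, the ages overlapped and the lowest share was that of 22 month replicate 3. Without that library the change of AS-tDR-003930 was -0.13.

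AS-tDR-009858 had 57, 35 and 52 tags at 3 months against 82, 72 and 54 at 22 months. This is 918 ± 160 and 913 ± 179 CPM (SD, n = 3 each; log2 difference -0.01, SE 0.24, edgeR adjusted p = 0.98). AS-tDR-012681 was the one of the 15 tested whose ages did not overlap, both in CPM and as a share of listed tags, with 49, 31 and 37 tags at 3 months and 37, 45 and 0 at 22 months. Its level was 783, 675 and 770 CPM at 3 months and 499, 551 and 0 at 22 months, and the log2 change of -1.08, with a standard error of 1.12, missed the threshold (edgeR adjusted p = 0.613). Without 22 month replicate 3, the library at 0, the change was -0.43.

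Within this set of 5, AS-tDR-004117 was the most abundant in every library. AS-tDR-004117 gave between 34.4% and 42.9% of the tags of the 5 in every library, and AS-tDR-003930 between 16.6% and 19.5%. AS-tDR-009858 gave 16.3%, 17.5% and 18.8% at 3 months and 22.2%, 19.6% and 27.3% at 22 months. Its ages did not overlap on this scale, but they did in CPM, with a log2 difference of -0.01. AS-tDR-012681 gave 13.4% to 15.5% at 3 months and 10%, 12.3% and 0% at 22 months, also without overlap. In CPM, which is another scale, the ages did not overlap for 39.4% of all fragments tested. No such share was determined for proportions within a set. The proportions within the 5 sum to a fixed total and were not tested.

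The shared fragments made up most of what was listed under Glu-CTC-3-1 and a small amount beside the glutamate fragments as a whole. Of the 8 fragments of Glu-CTC-3-1, 6 were shared with lysine, and these gave 92%, 93.2% and 100% of its tags at 3 months and 90.2%, 74.6% and 57.8% at 22 months. The other 2, AS-tDR-011760 and AS-tDR-015061, name Glu-CTC-3-1 and its precursor only. AS-tDR-011760 had 38, 20 and 0 tags at 3 months and 49, 138 and 140 at 22 months, a log2 change of 2.02 with a standard error of 1.05 (edgeR adjusted p = 0.279), and AS-tDR-015061 was listed only in 22 month replicates 2 and 3, at 27 and 48 tags, and was not tested. They were chosen after their values were seen. Lys-CTT-13-1 had 8 fragments, of which 7 were shared, and those 7 gave between 88.5% and 94.2% of its tags in every library.

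Set against fragments with a glutamate name only, the 6 amounted to 7.73%, 7.27% and 10.4% of their tags at 3 months and 6.25%, 4.35% and 2.96% at 22 months, ranges that did not overlap. Set against fragments with a lysine name only, they amounted to 3.29%, 2.19% and 4.2%, and to 3.33%, 1.99% and 1.3%, ranges that did. The glutamate-only fragments themselves took 9.8%, 8.41% and 8.74% of listed tags at 3 months. At 22 months they took 10.2%, 11.6% and 10.2%, also without overlap. The lysine-only fragments took 23%, 27.9% and 21.8%, and 19.1%, 25.3% and 23.3%, with overlap. The list of 34 tested glutamate-only fragments had a median log2 difference of -0.09 with 0 higher and 1 lower past the threshold. The 28 tested lysine-only fragments had one of 0.79 with 0 called. A median weighs each fragment alike and does not describe the summed tags. Whether the shared fragments differ from either list was not tested.

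The 5 fragments of glycine with valine gave overlapping shares at both ages. They are listed under Gly-ACC-1-1 and valine tRNAs with the anticodons AAC and CAC. Their sum was 210, 176 and 182 tags at 3 months and 296, 304 and 285 at 22 months, or 0.366%, 0.39% and 0.412% of listed tags against 0.416%, 0.316% and 0.336% (0.389% ± 0.0232 and 0.356% ± 0.0529, SD, n = 3 each). Of the 5, 0 passed, 3 log2 differences were positive and 2 negative, with a median of 0.12. The difference between the mean shares, -0.0331 percentage points, was 0.0233 with TMM-scaled totals.

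AS-tDR-000076 had 84, 71 and 89 tags at 3 months against 120, 127 and 141 at 22 months. This is 1580 ± 257 and 1711 ± 218 CPM (SD, n = 3 each; log2 difference 0.12, SE 0.20, edgeR adjusted p = 0.747, and -0.10 when scaled by library size only). AS-tDR-005700, with the same 5 parents, had 68, 68 and 59 tags and 100, 98 and 86, or 1265 ± 199 and 1248 ± 87 CPM (log2 difference -0.02, SE 0.19, edgeR adjusted p = 0.964). The tags of both were higher in every 22 month library than in any at 3 months, as were the library totals, and the scaled levels overlapped.

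The remaining 3 glycine with valine fragments were scarcer. AS-tDR-006288 had 20 to 32 tags at 3 months and 29 to 37 at 22 months (log2 difference -0.09, SE 0.31, edgeR adjusted p = 0.877). AS-tDR-010791 was at 0 in 3 month replicate 3 and had 17 to 32 tags elsewhere. AS-tDR-001130 was at 0 in 3 libraries and had 13 tags in 3 month replicate 3, 16 in 22 month replicate 1 and 18 in 22 month replicate 2. The log2 change was 0.43 for AS-tDR-010791, with a standard error of 1.20 (edgeR adjusted p = 0.852), and -0.15 without 3 month replicate 3. For AS-tDR-001130 it was 0.69, with a standard error of 2.19 (edgeR adjusted p = 0.867), and without 3 month replicate 3 its 3 month libraries are all at 0, so that the fitted 6.31 depends on the prior count and is no bound.

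Under Val-AAC-2-1, the shared fragments were a larger part of the tags at 22 months, although their own scaled levels overlapped between the ages. Library totals were 44156 to 57425 tags at 3 months and 71121 to 96130 at 22 months. The 10 fragments of this tRNA summed to 620, 420 and 427 unscaled tags at 3 months and to 409, 408 and 463 at 22 months. These sums were thus a smaller share of listed tags at 22 months. The 4 shared with glycine had 210, 176 and 169 tags at 3 months and 280, 286 and 285 at 22 months. They gave 33.9%, 41.9% and 39.6% of the tags of Val-AAC-2-1 at 3 months and 68.5%, 70.1% and 61.6% at 22 months, ranges that did not overlap. The 45 tested fragments with a valine name only had a median log2 difference of -0.57, with 5 lower and 0 higher past the threshold. Under the valine tRNAs Val-AAC-5-1 and Val-CAC-1-1, which name 2 of the shared fragments among 6 each, the ranges overlapped. The 2 gave 15.8%, 21.8% and 21.4% of the tags of Val-AAC-5-1 at 3 months and 20.1%, 20% and 26.4% at 22 months. Under Gly-ACC-1-1, which has 6 fragments, the same 4 as under Val-AAC-2-1 gave 82.4% to 89.7% of the tags at 3 months and 90.3% to 93.1% at 22 months. These proportions follow from sums over fragments chosen with the results known and carry no test.

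The other 6 shared fragments had at most 50 tags in any library. AS-tDR-010789 of glycine with lysine had 28 to 32 tags at 3 months and 27 to 44 at 22 months, a log2 change of -0.26 with a standard error of 0.29 (edgeR adjusted p = 0.64), and -0.04 without 22 month replicate 3. It is the only fragment listed under Gly-ACC-2-1. AS-tDR-000106 of phenylalanine with serine had 26, 26 and 33 tags at 3 months and 35, 44 and 50 at 22 months, or 556 ± 136 and 569 ± 115 CPM (SD, n = 3 each; log2 difference 0.03, SE 0.31, edgeR adjusted p = 0.956). In both fragments the scaled ages overlapped.

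AS-tDR-006911, under the same 7 parents as AS-tDR-000106, was at 0 in 3 libraries and had 8, 13 and 13 tags in the others, a log2 change of -1.31 with a standard error of 2.24 (edgeR adjusted p = 0.738). Without 22 month replicate 1 its 22 month libraries are all at 0, and the fitted -6.14 is likewise no bound. These are the only fragments of Ser-GGA-1-1 in the table, and that tRNA had 56.8% identity to the nearest other serine tRNA against 94.7% to Phe-GAA-1-1. AS-tDR-004874 of leucine with proline was at 0 in 22 month replicate 3 and had 21 to 37 tags elsewhere, a log2 change of -0.90 with a standard error of 1.20 (edgeR adjusted p = 0.685). Without that library its change was -0.27. Its 31 parents, the most of any of the 17, cover proline tRNAs of the anticodons AGG, CGG and TGG and the 3 copies of Leu-TAA-5. AS-tDR-011158, the other fragment of this combination, had 14 tags in 3 month replicate 3 and 0 in the other 5 libraries. AS-tDR-007197, of alanine and the undetermined tRNA, had 10 and 9 tags in 3 month replicates 2 and 3 and 0 elsewhere. Neither of these 2 was tested.

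Missing the threshold does not show that the levels were equal, and the intervals state what sizes remain possible. For the 10 shared fragments above 0 in all 6 libraries, the 95% interval of the log2 difference from the edgeR fit lay within 2-fold in either direction for 7. For AS-tDR-000076 it ran from -0.38 to 0.61, for AS-tDR-005700 from -0.49 to 0.45, and for AS-tDR-009858 from -0.60 to 0.58. For the other 3, all of glutamate with lysine, the interval reached a fall of more than 2-fold: from -1.56 to 0.07 for AS-tDR-004118, from -1.56 to 0.19 for AS-tDR-003929 and from -1.07 to 0.27 for AS-tDR-003930. The intervals are for single fragments and are not adjusted for their number.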

How the data were processed

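Per the labels' protocols, total RNA was extracted with Trizol and small RNA was sequenced on the NextSeq platform. Per the submitters' processing notes, the tools included FastQC, cutadapt, Novoalign, and the build was mm10. How tags were counted, where the IDs come from and why small counts are absent is not stated in those sources. The authors deposited 1 table of whole-number tag counts. Its name includes the word normalized, but the library totals differ, and the values were used as raw counts.

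Counts repeat on each of the 3257 lines, and each ID was used once. Columns named Age and WT were read as 22 and 3 months and their numbers as replicate numbers. No label says that the libraries come from separate animals, and the p-values then cover only the spread among these libraries, which may be technical. Replicates differed by more than counting error (chi-square over its degrees of freedom 6.6 to 59.7).

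The test was edgeR's quasi-likelihood test (edgeR 4.0.16, R 4.3.3) without a replicate term, after TMM scaling and filterByExpr at a minimum of 10 tags, which kept 439 of 591 IDs. P-values were adjusted by Benjamini-Hochberg. A standard error is the fitted log2 change over the root of its F statistic. DESeq2 1.42.0 and limma-voom (limma 3.58.1) were alternatives. Mature tRNAs were aligned globally with Biopython 1.88 (match 1, mismatch -1, gap open -2, gap extend -1), with U read as T. Identity is identical bases over aligned positions. Every library's count is given for the 8 shared IDs with the highest mean CPM, any past the threshold and any whose ages did not overlap in CPM, and the rest by range or by their few counts above 0. Members and lists were chosen with earlier results of these data known. Intervals cover the spread between libraries only.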

Additional observations from a re-analysis of the deposited data

How the results depend on the processing

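No shared fragment passed in any of the 15 alternatives, while the number called over all fragments ranged widely around 29. It was 0 with library size only, with scaling to the smallest listed count, with no filter on low counts and with a replicate block, 44 with DESeq2 size factors, 65 for fragments above 0 in all libraries, 50 with zeros raised to 1 under the listing minimum, 97 with the DESeq2 test and 46 with limma-voom. It lay between 0 and 14 with 1 library left out (0 when that was any of the 3 month libraries or the first 22 month replicate, 14 when it was 22 month replicate 2 and 11 when it was 22 month replicate 3). The cause was not tested. The smallest edgeR adjusted p of AS-tDR-003929 and AS-tDR-004118 was 0.0825, among fragments above 0 in all libraries. In that fit, 2 of 10 shared fragments had an unadjusted edgeR p under 0.05, against 125 of 290 over all fragments. The count was 1 of 15 with library size only (107 of 439 over all) and with scaling to the smallest listed count (98 of 439). Without 3 month replicate 1 the count was 1 of 16 (124 of 489 over all).

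Of 220 values of single shared fragments under alternatives, 202 kept their sign and 18, of 7 fragments, did not. With library size only, which moves the median of all fragments from -0.16 to -0.34, AS-tDR-000076 had -0.10 and AS-tDR-000106 -0.19. Scaled to the smallest listed count they had -0.08 and -0.17. With zeros raised AS-tDR-000106 had -0.0029. With 1 library left out, the log2 difference ran from -0.14 to 0.26 for AS-tDR-000106 (negative without 3 month replicate 1, and -0.06 without 22 month replicate 3), from -0.30 to 0.05 for AS-tDR-004117 (positive without 22 month replicate 3), and from -0.11 to 0.19 for AS-tDR-005700 (0.19 without 3 month replicate 2, and 0.03, 0.01 and 0.08 without each 22 month replicate in turn). It ran from -0.17 to 0.04 for AS-tDR-006288 (0.02 and 0.04 without 22 month replicates 1 and 2), from -0.06 to 0.17 for AS-tDR-009858 (0.12 without 3 month replicate 3, 0.02 and 0.17 without 22 month replicates 2 and 3), and from -0.15 to 0.93 for AS-tDR-010791 (negative without 3 month replicate 3, its library at 0). The difference in summed share, -0.4 percentage points, was -0.227 with TMM-scaled totals and between -0.534 and -0.278 with 1 library left out. The glycine with valine sum turned from -0.0331 to 0.0233 points with TMM-scaled totals. Merging Met with iMet, or allowing IDs with precursor names only, also gave 17 shared fragments.

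The labels do not say that equal replicate numbers pair libraries, so the numbers were not taken to pair them. Deviations from the age mean were correlated across fragments between libraries of the 2 ages. The correlation was -0.458, 0.036 and -0.346 for equal replicate numbers and between -0.076 and 0.442 for unequal ones. Deviations cancel within an age, so these correlations constrain each other and cannot settle whether libraries were paired. The replicate block left 0 shared fragments called.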
